A study of Rattus norvegicus with 31 samples.

Results

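The 6 genes described here encode the enzymes that make arginine and use it: Ass1, Asl, Arg1, Arg2, Odc1 and Oat. They were taken as every probe set whose platform-annotation symbol is one of these names, which gave 7 probe sets of 31099, for 6 genes of 14217 named on the array. Where a gene had several, the one with the highest mean over all 31 arrays stands for it. Ass1 was picked because its signal differed between hormone ablation and sham in these same arrays, and the other 5 genes were added as its pathway. That contrast is therefore described below for all 6 genes with no test, and so is Ass1 in estradiol plus ablation against sham, which uses the same sham arrays. For the other 5 genes, estradiol plus ablation against sham shares those arrays too. An adjusted p given for them there is a description and not evidence independent of the choice.

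The study asked how estradiol acts on gene expression in irradiated rat testes, where hormone suppression is used to restart sperm production. Total RNA of whole testes of LBNF1 rats, 25 to 27 weeks old, was hybridised to Affymetrix rat arrays, 1 array per biological replicate. All titles name irradiated testes, and the treatment protocol gives 6 Gy to the lower abdomen for every sample, so no group here is without irradiation by title. The estradiol plus ablation group (n = 6) received a GnRH antagonist, an androgen receptor antagonist and estradiol, and its labels also call this FSH supplementation. The ablation group (n = 11) received flutamide, which blocks the androgen receptor, together with a GnRH antagonist. The sham group (n = 14) received sham treatment. The description field calls 10 of the 14 sham samples control testes and the other 4 irradiated testes, which goes against the common title of the group. The 6 estradiol plus ablation arrays were added to 25 arrays deposited earlier and carry 2 decimals, so deposit and estradiol treatment cannot be told apart in any comparison with that group. Values are MAS5 signals on a logarithmic scale read here as log2, and a negative value is a signal below 1. A probe set entered the tests if 6 or more arrays gave it a value over the 40th percentile of that array, a level of -1.93 to -1.75.

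Arginine is assembled from citrulline and aspartate by argininosuccinate synthetase (Ass1), whose product is split by argininosuccinate lyase (Asl). The arginases (Arg1 in the cytosol, Arg2 in mitochondria) cleave arginine to ornithine and urea, after which ornithine decarboxylase (Odc1) opens polyamine synthesis and ornithine aminotransferase (Oat) sends ornithine towards glutamate and proline. Arginine also feeds nitric oxide and creatine synthesis, and the testis is a tissue rich in polyamines. In mouse kidney, androgens are known to induce Odc1.

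Ass1, which joins citrulline to aspartate, had the widest spread between groups of the 6 genes, the feature it was picked for. In estradiol plus ablation its signal was 0.77, 0.52, 0.14, 0.58, 0.48 and 0.26 on the log2 scale. In ablation it ran between 0.94 and 1.52 with a median of 1.31, and in sham between 3.88 and 4.97 with a median of 4.34. The 3 groups did not overlap: every estradiol plus ablation array lay below every ablation array, and every ablation array below every sham array. Group means were 0.46 ± 0.23 in estradiol plus ablation (SD, n = 6), 1.24 ± 0.19 in ablation (SD, n = 11) and 4.37 ± 0.32 in sham (SD, n = 14).

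Ass1 was lower in estradiol plus ablation than in ablation, a comparison in which deposit and estradiol treatment cannot be told apart. The difference, estradiol plus ablation minus ablation, was -0.78 ± 0.13 (SE), or 1.72-fold lower, with a 95% interval of -1.05 to -0.52 and an adjusted p of 0.000108 in limma. In that comparison 5.52% of the 21269 tested probe sets were called and 1.55% had groups that did not overlap. Of 11387 genes, 106 had a lower difference than Ass1. The 11 ablation arrays in this comparison are also those of the contrast from which Ass1 was picked.

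Ablation against sham, the contrast behind the choice of Ass1, gave -3.13 ± 0.10 (SE), or 8.75-fold lower in ablation, and only 5 of 11387 genes had a lower difference. Estradiol plus ablation against sham gave -3.91 ± 0.13 (SE), or 15.1-fold lower. In whole testes, fewer cells of a type and less RNA per cell cannot be told apart, here and in every comparison that follows.

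**Figure D1:**
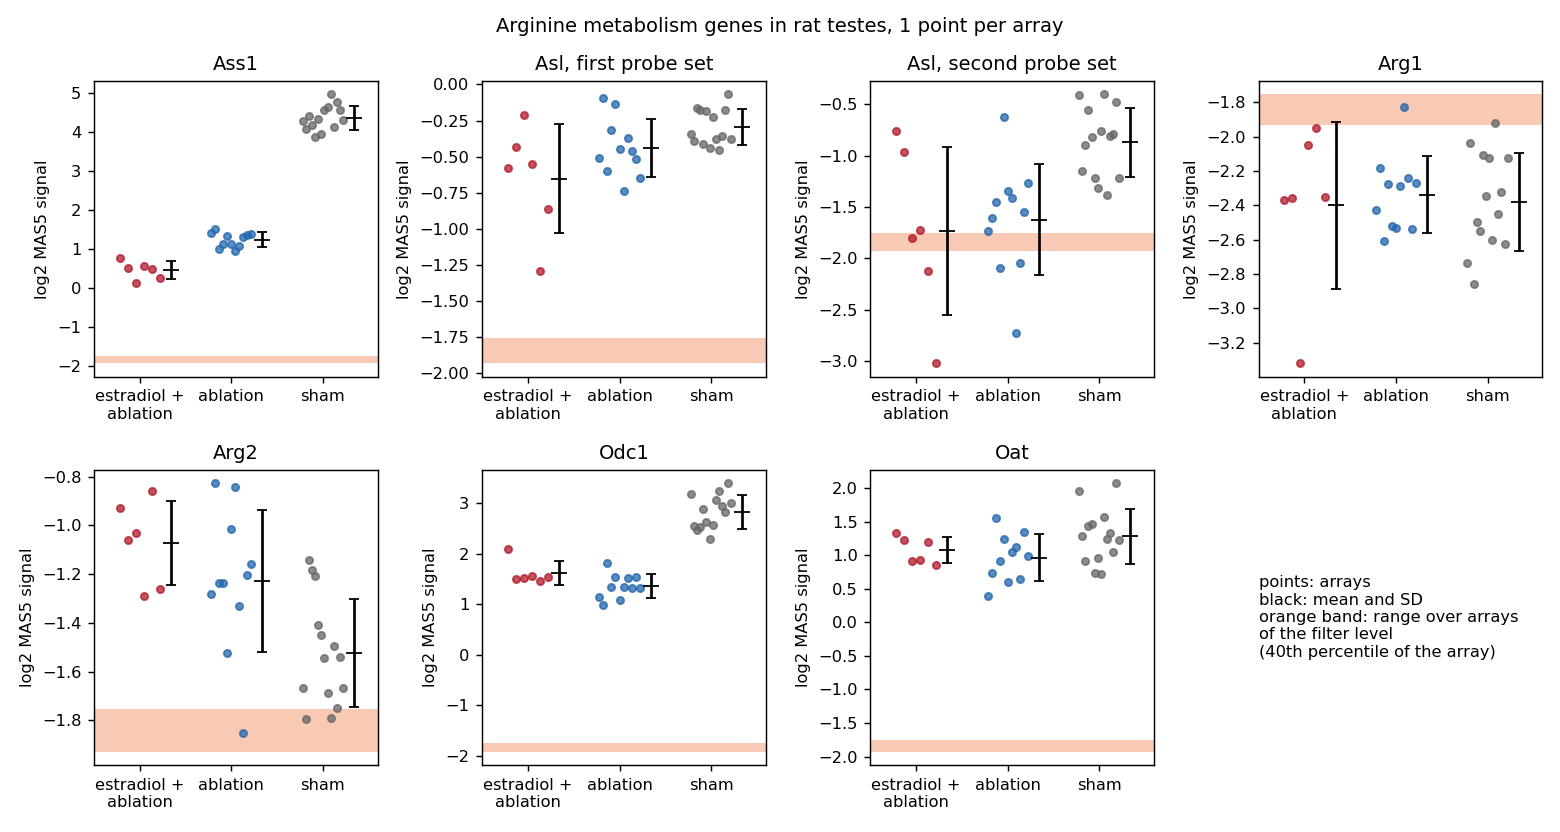
Log2 MAS5 signal of the member probe sets, 1 point per array, for estradiol plus ablation (n = 6), ablation (n = 11) and sham (n = 14), with the mean and SD in black. Ass1 forms 3 separate bands, Odc1 is lower in both treated groups than in sham, and Arg1 lies low in all 3 groups.

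Odc1, which converts ornithine to putrescine, was the other member with a wide gap from sham. Its signal was 2.09 in replicate 1 of estradiol plus ablation and 1.45 to 1.56 in the other 5 arrays. It ran between 0.97 and 1.82 with a median of 1.33 in ablation, and between 2.28 and 3.40 with a median of 2.85 in sham. Both treated groups lay wholly below sham and overlapped each other. Means were 1.61 ± 0.24 in estradiol plus ablation (SD, n = 6), 1.36 ± 0.24 in ablation (SD, n = 11) and 2.83 ± 0.33 in sham (SD, n = 14).

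Ablation minus sham was -1.47 ± 0.11 (SE) for Odc1, or 2.77-fold lower in ablation, and 84 of 11387 genes had a lower difference. In that comparison 19.4% of probe sets were called and 1.77% had groups that did not overlap. Odc1 was 2.32-fold lower in estradiol plus ablation than in sham, a difference of -1.22 ± 0.13 (SE) with an adjusted p of 1.13e-08 in limma. The sham arrays are those of the contrast behind the choice of genes, so this p is given as a description. In estradiol plus ablation against sham the background was 14.5% of probe sets called and 2.8% without overlap. Against ablation, the difference of 0.25 ± 0.14 (SE) in estradiol plus ablation did not pass the test, with an adjusted p of 0.378 and an interval of -0.03 to 0.54.

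The 2 genes were also set against each other within arrays, as a description. The gap between the 2 probe sets within an array, Ass1 minus Odc1, averaged -1.15 ± 0.19 in estradiol plus ablation (SD, n = 6) and -0.12 ± 0.37 in ablation (SD, n = 11). It ran between -1.38 and -0.97 in estradiol plus ablation and between -0.81 and 0.55 in ablation, with no overlap. The difference between the group means was -1.04. This gap was chosen after the values were seen and was not tested, and only a difference between groups in it can be read, since signals of different probe sets share no scale.

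Because both genes were lower in ablation than in sham, their promoters are shown side by side. RefSeq promoter windows (GRCr8) were found for 4 of the 6 genes. The 250 bases before the annotated start lie at chr3:35149480-35149729 on the plus strand for Ass1 and at chr6:46058415-46058664 on the plus strand for Odc1, written 5′ to 3′ with the motifs found in capitals.
Ass1: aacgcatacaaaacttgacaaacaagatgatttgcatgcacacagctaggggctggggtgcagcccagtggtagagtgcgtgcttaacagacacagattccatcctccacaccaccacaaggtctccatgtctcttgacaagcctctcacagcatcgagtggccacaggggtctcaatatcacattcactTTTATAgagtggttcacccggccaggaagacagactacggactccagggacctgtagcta
Odc1: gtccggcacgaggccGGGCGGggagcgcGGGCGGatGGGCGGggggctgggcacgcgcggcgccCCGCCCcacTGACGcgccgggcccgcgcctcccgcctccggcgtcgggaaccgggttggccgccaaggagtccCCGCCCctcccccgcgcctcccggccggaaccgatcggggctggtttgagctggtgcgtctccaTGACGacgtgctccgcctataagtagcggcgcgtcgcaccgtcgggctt
The 2 windows differ in base composition, with a GC share of 51.2% in Ass1 and 78.0% in Odc1, against a median of 51.2% over all promoter windows. Motifs were searched by their letters on both strands, and one on the minus strand appears above as its reverse complement. Ass1 held 1 match to the TATA box letters TATAAA, which 12.9% of 33469 promoters hold on either strand, and none of the other motifs searched. That match lies on the minus strand, opposite to the direction of the gene, so it is not read as a TATA box of Ass1. Matching was exact, so the letters tataag near the end of the Odc1 window were not counted. Odc1 held 5 GC boxes, GGGCGG, found in 30.5% of promoters. It also held 2 partial cAMP response elements, TGACG, found in 18.2%. The full cAMP response element TGACGTCA, which contains the partial one, is held by 1.59% of promoters and was in neither window. Neither held the Nr5a1 site AAGGTCA (3.99% of promoters) or the CCAAT box (34.0%). The palindromic estrogen response element (0.0239%) and androgen response element (0.012%) were in neither window as well. These matches describe letters in short windows and say nothing of which factors bind.

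Asl, which splits argininosuccinate into arginine and fumarate, had 2 probe sets that did not give the same picture. The one with the higher mean, called the first here, is named Asl by its Entrez number, but its accession, NM_031330, belongs to Hnrnpab in RefSeq. Such a mismatch was found for 13 of 2902 probe sets with 1 symbol and a RefSeq accession. The second carries the accession of Asl itself. Over 31 arrays the first probe set had a Pearson correlation of 0.50 with the second and of -0.26 with an Hnrnpab probe set, as a description. Within groups these were 0.31 and -0.08. Both probe sets are given.

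The second Asl probe set averaged -1.73 ± 0.82 in estradiol plus ablation (SD, n = 6), -1.62 ± 0.54 in ablation (SD, n = 11) and -0.87 ± 0.34 in sham (SD, n = 14). It was above the filter level on 4 of 6 estradiol plus ablation arrays, 8 of 11 ablation arrays and all 14 sham arrays. All groups overlapped. The ablation arrays differed from sham by -0.75 ± 0.20 (SE). Against sham, estradiol plus ablation gave -0.86 ± 0.24 (SE), with an adjusted p of 0.0116 in limma, and -0.63 when values under the filter level were set to it. That call was lost without estradiol plus ablation replicate 6, at an adjusted p of 0.0851, and with only the sham samples described as irradiated, at 0.12. Against ablation the difference was -0.11 ± 0.25 (SE) with an adjusted p of 0.882.

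The first Asl probe set spread less. It averaged -0.65 ± 0.38 in estradiol plus ablation (SD, n = 6), -0.44 ± 0.20 in ablation (SD, n = 11) and -0.30 ± 0.12 in sham (SD, n = 14). The low mean in estradiol plus ablation came with replicate 5 at -1.29 and replicate 6 at -0.86, beside 4 arrays between -0.58 and -0.21. Estradiol plus ablation minus sham was -0.36 ± 0.11 (SE) with an adjusted p of 0.0265 in limma, which was 0.161 without replicate 5 and 0.0859 without replicate 6, and the call was lost under 6 of 12 other alternatives. In ablation minus sham it gave -0.14 ± 0.09 (SE), and in estradiol plus ablation minus ablation -0.21 ± 0.12 (SE), with an adjusted p of 0.373.

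Arg1, the cytosolic arginase best known from liver, was below the filter level on nearly all arrays. Its probe set passed the filter level on 2 of 31 arrays, ablation replicate 8 at -1.83 and sham replicate 10 at -1.92, and so was not tested. Means were -2.40 ± 0.49 in estradiol plus ablation (SD, n = 6), -2.34 ± 0.22 in ablation (SD, n = 11) and -2.38 ± 0.28 in sham (SD, n = 14), with all groups overlapping. Of 5 genes that mark liver or blood leukocytes, other sources of Arg1, only Ttr passed the filter, and Alb, Apoa1, S100a8 and S100a9 did not.

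Arg2, the mitochondrial arginase, was higher in estradiol plus ablation than in sham, where Odc1 was lower. It ran between -1.29 and -0.86 in estradiol plus ablation with a median of -1.04, between -1.85 and -0.83 in ablation with a median of -1.23, and between -1.80 and -1.14 in sham with a median of -1.54. The groups overlapped, but all 6 estradiol plus ablation arrays lay above the sham mean. Means were -1.07 ± 0.17 in estradiol plus ablation (SD, n = 6), -1.23 ± 0.29 in ablation (SD, n = 11) and -1.52 ± 0.22 in sham (SD, n = 14).

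The Arg2 difference between estradiol plus ablation and sham was 0.45 ± 0.13 (SE), with an adjusted p of 0.0165 in limma. The adjusted p was 0.0521 without estradiol plus ablation replicate 5, 0.0578 with only the sham samples described as irradiated and 0.0577 with only those described as control. For ablation minus sham the Arg2 difference was 0.30 ± 0.11 (SE). Against ablation, estradiol plus ablation gave 0.16 ± 0.14 (SE) with an adjusted p of 0.635.

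Oat, which moves the amino group of ornithine to make the precursor shared by glutamate and proline, did not separate the groups. It ran between 0.86 and 1.33 in estradiol plus ablation, between 0.39 and 1.55 in ablation and between 0.72 and 2.07 in sham. Means were 1.08 ± 0.20 in estradiol plus ablation (SD, n = 6), 0.96 ± 0.35 in ablation (SD, n = 11) and 1.28 ± 0.40 in sham (SD, n = 14). All 3 groups overlapped.

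For Oat, estradiol plus ablation minus ablation was 0.12 ± 0.17 (SE, adjusted p of 0.797 in limma, interval -0.23 to 0.46). Estradiol plus ablation minus sham was -0.20 ± 0.16 (SE, adjusted p of 0.483, interval -0.53 to 0.13). The ablation arrays differed from sham by -0.32 ± 0.13 (SE). Oat did vary from array to array with Odc1, the other enzyme that takes ornithine. After subtracting group means their correlation over 31 arrays was 0.75, and 118 of 11387 genes had a higher one with Odc1. Ass1 and Odc1 had a within-group correlation of 0.29. These are descriptions over arrays that share groups and deposits.

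**Figure D2:**
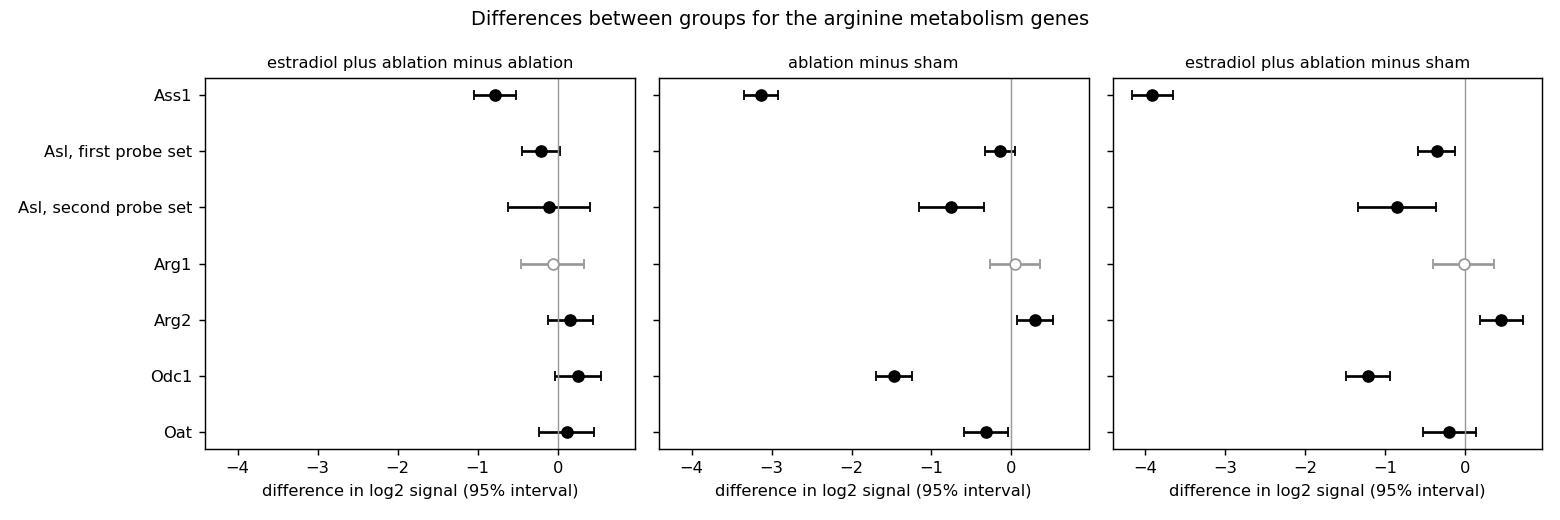
Differences in log2 MAS5 signal between groups for the member probe sets, with 95% intervals, in 3 panels: estradiol plus ablation minus ablation, ablation minus sham, and estradiol plus ablation minus sham. Ass1 lies far left of 0 in the panels against sham at -3.13 and -3.91, Odc1 follows at -1.47 and -1.22, and in estradiol plus ablation minus ablation the interval of Ass1 alone lies wholly below 0. Arg1, in open grey, did not pass the filter.

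The sham samples described as irradiated and those described as control differed in no member beyond the test, with an adjusted p of 1 for each member tested. The irradiated-described samples minus the control-described samples differed by 0.12 ± 0.18 (SE) for Ass1 and 0.30 ± 0.17 (SE) for Odc1. No probe set was called in limma in this comparison (0 of 21269, a share of 0%), and 513 had an unadjusted p under 0.05, or 2.41%. The sham arrays do not enter the means of the Ass1 difference between estradiol plus ablation and ablation, but their spread enters its error and adjusted p.

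Markers of Leydig cells, the steroid-making cells between the tubules, differed between the groups as well. Of 10 such markers, 7 were lower and 2 higher in ablation than in sham (12.8% and 9.23% of all genes), with a median of -1.45 beside 0.00082 over all 11387 genes. In estradiol plus ablation against ablation, 3 were lower (Insl3, Cyp17a1 and Cyp11a1), none higher and 7 did not pass. Of all genes, 2.73% were called lower and 0.729% higher there. The median of the markers was 0.09 beside -0.02 over all genes. The mean log2 level of the 10 markers ran between 0.56 and 1.04 in estradiol plus ablation, between 0.88 and 1.44 in ablation and between 2.25 and 3.02 in sham. Their summed signal ran between 40.5 and 75.8 in estradiol plus ablation, between 52.5 and 69.3 in ablation and between 67.4 and 132 in sham.

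On a logarithmic scale no signal can be 0, so low Leydig marker signals were set against the filter level. Insl3, which encodes an insulin-like hormone, was above the filter level on 3 of 6 estradiol plus ablation arrays, and on all ablation and sham arrays. Hsd17b3, the last enzyme of testosterone synthesis, was above it on 5 of 6 estradiol plus ablation, 9 of 11 ablation and all 14 sham arrays. The LH receptor gene Lhcgr averaged 3.15 ± 0.31 in estradiol plus ablation, 3.04 ± 0.15 in ablation and 2.69 ± 0.32 in sham (SD, n = 6, 11 and 14). It was one of the 2 markers called higher in ablation than in sham, so the markers did not move as one. The other was Hsd3b1, whose probe set carries an accession that belongs to Hsd3b2 in RefSeq. Within groups, the correlation of Ass1 with the mean marker level was 0.69 for the Leydig markers and 0.61 for the fibroblast and matrix markers, and lay between -0.15 and 0.45 for the other lists. For Odc1 it was 0.30 with the Leydig markers, 0.57 with the endothelial markers and 0.38 with the macrophage markers, and lay between -0.24 and 0.33 for the other lists, all as descriptions over 31 arrays.

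**Figure D3:**
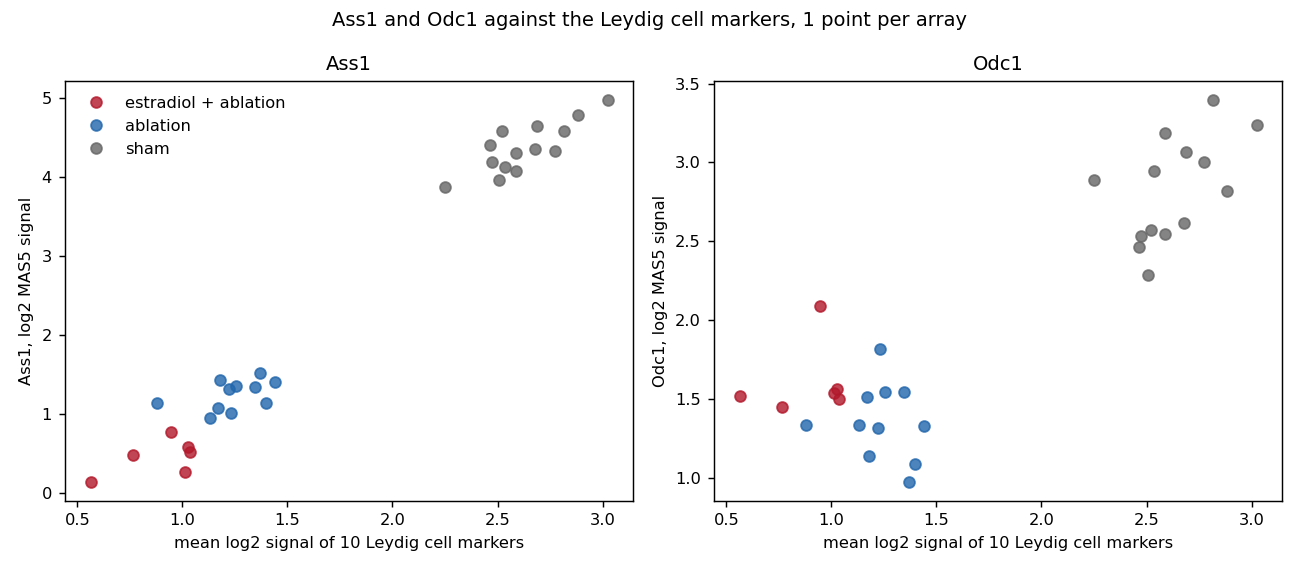
Ass1 (left) and Odc1 (right), log2 MAS5 signal, against the mean log2 signal of 10 Leydig cell markers, 1 point per array, coloured by group. Sham arrays sit at marker levels of 2.25 to 3.02, apart from the treated arrays at 0.56 to 1.44, and within the treated arrays Ass1 is lower in estradiol plus ablation.

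Other cell markers moved as well. In ablation against sham, 8 of 8 macrophage markers, 5 of 7 peritubular myoid markers, 2 of 5 endothelial markers and 4 of 6 fibroblast and matrix markers were lower, and 2 of 8 Sertoli markers were higher. Of all genes, 12.8% were called lower and 9.23% higher. In estradiol plus ablation against ablation, no macrophage or endothelial marker was called, 2 fibroblast and matrix markers were lower and 1 was higher, and the peritubular marker Myl9 and the spermatid marker Prm1 were lower. Ret and Sox3, 2 of 6 markers of undifferentiated spermatogonia, were higher there, by 0.81 (adjusted p of 0.0237) and 0.61 (adjusted p of 0.013), as was the Sertoli marker Dmrt1, by 0.65 (adjusted p of 0.0019). Of all genes, 0.729% were called higher and 2.73% lower in that comparison. Prm1 was above the filter level on 0 of 6 estradiol plus ablation arrays and 8 of 11 ablation arrays. In ablation it ran between -5.14 and 4.18, so its call rests on values below that level and on a wide spread. The mean level of the spermatogonia markers ran between -0.44 and 0.033 in estradiol plus ablation, between -1.14 and -0.50 in ablation and between -2.32 and -1.19 in sham, and 5 of the 6 were called higher in ablation than in sham. Among these 5, Ret and Sall4 were each above the filter level on 0 of 14 sham arrays. Both were above it on 8 of 11 ablation arrays and on all 6 estradiol plus ablation arrays. They passed the filter only through the treated groups, so their calls against sham rest on sham values below that level. The mean level of the macrophage markers ran between 0.09 and 0.52 in estradiol plus ablation, between 0.02 and 0.53 in ablation and between 0.53 and 1.31 in sham. That of the fibroblast and matrix markers ran between 0.95 and 1.47 in estradiol plus ablation, between 1.19 and 1.65 in ablation and between 2.17 and 2.68 in sham. The part of these markers, and of the Leydig markers, in the Ass1 and Odc1 differences was not tested. Sham replicates 6 and 7 and ablation replicate 4 had high spermatid markers, and without all 3 of them, an alternative added after seeing the data, estradiol plus ablation minus ablation was -0.79 for Ass1 and 0.25 for Odc1. Oaz3, an inhibitor of Odc1 made in spermatids, ran between -2.68 and -1.55 in estradiol plus ablation, between -3.11 and 1.00 in ablation and between -2.72 and 2.47 in sham, and was called in no comparison.

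The genes most like Ass1 were ranked by Pearson correlation among 11272 genes. Over all 31 arrays they were Col3a1 at 0.988, Insl3 at 0.984, Ces1d at 0.983, Lcat at 0.979, Cyp11a1 and Adh1c at 0.978, and Tspo and Slc1a3 at 0.974. The differences between the 3 groups enter these values. Adh1c, an alcohol dehydrogenase, differed by -0.08 between estradiol plus ablation and ablation (adjusted p of 0.808 in limma). Ces1d, a carboxylesterase, differed by -1.49 with an adjusted p of 2.51e-06, and the collagen gene Col3a1 by -0.40 with 0.00679.

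After subtracting group means, the most like genes were Retsat at 0.724, Reep6 at 0.708, Cyp17a1 at 0.705, Gpi at 0.693, Inha at 0.680, Anapc2 at 0.680, Lrp10 at 0.669 and Mtch1 at 0.663. No gene stood in both lists. Cyp17a1, which makes androgen precursors in Leydig cells, differed by -1.85 ± 0.14 (SE) between estradiol plus ablation and ablation, with an adjusted p of 2.89e-11. Retsat differed by -0.02 ± 0.11 (SE), with an adjusted p of 0.955.

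Other genes of arginine metabolism came from 6 lists of 60 genes, of which 56 were on the array and 48 passed the filter. The 48 include Spr, whose matched probe set the platform annotation names Sprr1a. In estradiol plus ablation against ablation 5 of the 48 were called (10.4%), 1 higher and 4 lower, against 3.46% of all genes (0.729% higher, 2.73% lower). Their split depended on the scaling: 3 were higher and 2 lower after quantile normalization, and 2 were higher and 2 lower with arrays centred on their median. Their median difference was -0.06, beside -0.02 over all genes. In ablation against sham 13 were called (27.1%), 4 higher and 9 lower, against 22.1% (9.23% higher, 12.8% lower), with a median of -0.07 beside 0.00082. After quantile normalization that split was 7 higher and 9 lower. In estradiol plus ablation against sham 11 were called (22.9%), 1 higher and 10 lower, against 17.2% (5.28% higher, 11.9% lower), with a median of -0.17 beside -0.03. After quantile normalization 4 were higher and 11 lower. With only the sham samples described as irradiated, 7 were called in estradiol plus ablation against sham and 7 in ablation against sham.

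The number of calls between estradiol plus ablation and ablation moved with single arrays. The count was 3 without ablation replicate 1, 2 without ablation replicate 5, and 3 without ablation replicate 7. It was 2 without estradiol plus ablation replicate 1, 3 without replicate 3 and 1 without replicate 5.

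Of 5 tested genes of arginine transport, 2 lay wholly below sham in both treated groups. Over all 21269 probe sets, in either direction, 1.77% had no overlap in ablation against sham and 2.8% in estradiol plus ablation against sham. The share for both comparisons at once was not computed, and the count is not read as a result about the list. Slc3a2, the heavy chain that carries several amino acid transporters to the membrane, averaged 2.79 ± 0.12 in estradiol plus ablation, 2.58 ± 0.14 in ablation and 3.79 ± 0.21 in sham (SD, n = 6, 11 and 14). It was lower in ablation than in sham, at -1.21 ± 0.08 (SE, adjusted p of 6.13e-15 in limma), and 1.99-fold lower in estradiol plus ablation than in sham (adjusted p of 2.2e-10). Its highest treated value, 3.00, lay below its lowest sham value, 3.33.

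Slc7a7, a light chain that pairs with Slc3a2 to move arginine across membranes, averaged -1.05 ± 0.07 in estradiol plus ablation, -1.47 ± 0.25 in ablation and -0.27 ± 0.24 in sham (SD, n = 6, 11 and 14). Ablation minus sham was -1.20 ± 0.10 (SE, adjusted p of 5.37e-12 in limma), with no overlap. It was called higher in estradiol plus ablation than in ablation, by 0.42 ± 0.12 (SE, adjusted p of 0.0359). The 2 groups did not overlap, but that call was lost in 10 of 17 fits that each left out 1 array, with an adjusted p of up to 0.0928. These left out ablation replicates 1, 5, 7, 9 or 10, or estradiol plus ablation replicates 1, 3, 4, 5 or 6. It was also lost with no filter, at 0.0545, and with only the compared groups fitted, at 0.0708.

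The other light chain of this kind, Slc7a6, went the other way. It was lower in estradiol plus ablation than in ablation, at -0.52 ± 0.15 (SE, adjusted p of 0.0362), a call lost in 8 of 17 such fits, at up to 0.158 (without ablation replicates 1, 2, 3, 5 or 7, or estradiol plus ablation replicates 1, 2 or 5). It was also lost after quantile normalization, at 0.0685, after centring, at 0.083, and with a gene's probe sets averaged before the fit, at 0.053. In ablation it was higher than in sham by 0.36 ± 0.12 (SE, adjusted p of 0.0368), lost in 11 of 25 such fits at up to 0.0705 (without sham replicates 1, 3, 5, 10, 12 or 13, or ablation replicates 1, 2, 3, 5 or 7), and after centring at 0.0503 or with only control-described sham samples at 0.16. Slc7a1, the main cationic amino acid transporter of many cells, averaged 2.13 ± 0.25 in estradiol plus ablation, 2.04 ± 0.30 in ablation and 1.78 ± 0.35 in sham, and no comparison of it passed the test.

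**Figure D4:**
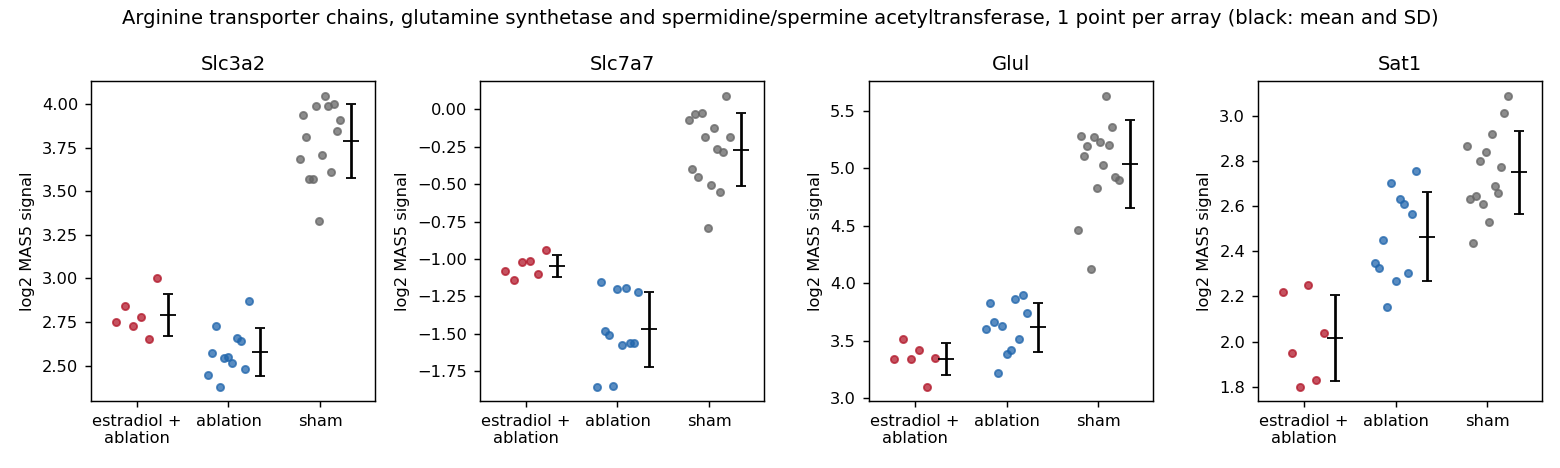
Log2 MAS5 signal of Slc3a2, Slc7a7, Glul and Sat1, 1 point per array, for estradiol plus ablation (n = 6), ablation (n = 11) and sham (n = 14), with the mean and SD in black. Slc3a2, Slc7a7 and Glul lie wholly below sham in both treated groups, and Sat1 does so in estradiol plus ablation.

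Around ornithine, glutamate and proline, 3 of 6 tested genes were called lower in each comparison with sham and none higher, beside 11.9% of all genes lower in estradiol plus ablation and 12.8% in ablation. Glul, which makes glutamine from glutamate, averaged 3.35 ± 0.14 in estradiol plus ablation, 3.62 ± 0.21 in ablation and 5.04 ± 0.38 in sham (SD, n = 6, 11 and 14). Ablation minus sham was -1.42 ± 0.12 (SE, adjusted p of 4.42e-12 in limma) and estradiol plus ablation minus sham -1.69 ± 0.14 (SE, adjusted p of 1.06e-11), both without overlap. Aldh4a1, which makes glutamate from the intermediate that Oat and Prodh yield, was lower in both, at -0.46 in ablation (adjusted p of 0.00402) and -0.44 in estradiol plus ablation (adjusted p of 0.0324). The second was lost, at up to 0.0939, without sham replicate 9 or estradiol plus ablation replicates 2, 3, 5 or 6.

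Glud1, glutamate dehydrogenase, was lower in ablation than in sham, at -0.32 ± 0.10 (SE, adjusted p of 0.0227), a call lost with only control-described sham samples at 0.0903. Prodh, which oxidises proline, was lower in estradiol plus ablation than in ablation, at -1.10 ± 0.28 (SE, adjusted p of 0.00983), and -0.79 with values under the filter level set to it. It passed the filter level on 3 of 6 estradiol plus ablation arrays, 10 of 11 ablation arrays and all 14 sham arrays. Without estradiol plus ablation replicate 5 its adjusted p was 0.0568. Against sham, estradiol plus ablation gave -1.53 ± 0.26 (SE, adjusted p of 5.13e-05), and -1.14 with values under the filter level set to it.

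Downstream of Odc1, the genes that extend the polyamine chain gave no call. Amd1, Srm and Sms, which supply and add the aminopropyl groups, passed the test in no comparison. Sat1, which acetylates spermidine and spermine for breakdown and export, averaged 2.02 ± 0.19 in estradiol plus ablation, 2.46 ± 0.20 in ablation and 2.75 ± 0.18 in sham (SD, n = 6, 11 and 14). It was lower in estradiol plus ablation than in ablation, at -0.45 ± 0.10 (SE, adjusted p of 0.00428), a call kept in all 17 fits that each left out 1 array. It was lower in ablation than in sham, at -0.28 ± 0.08 (SE, adjusted p of 0.0112, and 0.0714 with only control-described sham samples), and in estradiol plus ablation than in sham at -0.73 ± 0.10 (SE, adjusted p of 6.5e-07).

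Smox, which oxidises spermine, was lower in ablation than in sham, at -0.58 (adjusted p of 0.00972) but -0.22 with values under the filter level set to it. In estradiol plus ablation against sham it gave -0.71 (adjusted p of 0.011), and -0.31 on that floor, a call lost without estradiol plus ablation replicate 1 at 0.051. It passed that level on none of 6 estradiol plus ablation, 3 of 11 ablation and 10 of 14 sham arrays. Paox, which oxidises acetylated polyamines, was lower in estradiol plus ablation than in sham, at -0.43 ± 0.13 (SE, adjusted p of 0.0179), lost at up to 0.0694 without estradiol plus ablation replicates 4 or 5. Dhps and Dohh, which use spermidine to make the hypusine residue of a translation factor, were higher in ablation than in sham by 0.32 (adjusted p of 0.0105) and 0.35 (adjusted p of 0.00716). Dhps was higher in estradiol plus ablation than in sham by 0.65 ± 0.11 (SE, adjusted p of 4.19e-05), without overlap.

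With only irradiated-described sham samples, the calls in ablation minus sham were lost for Aldh4a1 (adjusted p of 0.13), Smox (0.179), Dhps (0.0926) and Dohh (0.28). So were the calls in estradiol plus ablation minus sham for Aldh4a1 (0.258), Smox (0.157) and Paox (0.235).

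The lists for creatine, nitric oxide and the aspartate shuttle held at most 1 call each per comparison. Of all genes, 22.1% were called in ablation against sham and 17.2% in estradiol plus ablation against sham. The share was 3.46% in estradiol plus ablation against ablation. In lists this small, these counts are not read as a result about the lists. Of 6 creatine genes, Gatm, the first enzyme of creatine synthesis, was higher in ablation than in sham by 0.27 (adjusted p of 0.0184), and by 0.11 with only irradiated-described sham samples (adjusted p of 0.607). The creatine transporter Slc6a8 was lower in estradiol plus ablation than in ablation, at -0.37 (adjusted p of 0.0274). That call was lost at up to 0.111 without ablation replicates 5 or 11 or estradiol plus ablation replicates 1, 3 or 5. It was also lost under 5 of 10 alternatives. These were quantile normalization (0.0529), centring (0.0943), array weights (0.0508), a replicate block (0.178) and the mean of its probe sets, at -0.08 (0.792). Slc6a8 was lower in estradiol plus ablation than in sham, at -0.40 ± 0.10 (SE, adjusted p of 0.00466). This was lost with the mean of its probe sets at 0.0691, with only irradiated-described sham samples at 0.0701 and with the replicate block at 0.0842. Of 9 genes of nitric oxide synthesis and methylarginine clearance, only Ddah2 was called in ablation against sham, at -0.67 ± 0.16 (SE, adjusted p of 0.0027, and 0.21 with only irradiated-described sham samples), and none in the other comparisons. The 9 include Spr, whose probe set the platform annotation names Sprr1a and which was called in no comparison.

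Nos2, the inducible nitric oxide synthase, spread between -3.08 and 0.31 in estradiol plus ablation, between -3.06 and 0.54 in ablation and between -3.20 and 0.54 in sham. Of 8 partners of the urea cycle and the aspartate shuttle, Got2, which makes the aspartate that Ass1 consumes, was lower in ablation than in sham, at -0.39 ± 0.09 (SE, adjusted p of 0.00248). The aspartate carrier Slc25a12 was lower in estradiol plus ablation than in sham, at -0.45 ± 0.13 (SE, adjusted p of 0.015), lost without estradiol plus ablation replicate 5 at 0.108, with array weights at 0.062 and with only irradiated-described sham samples at 0.29. Cps1 and Otc, the liver enzymes that supply citrulline, did not pass the filter.

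**Figure D5:**
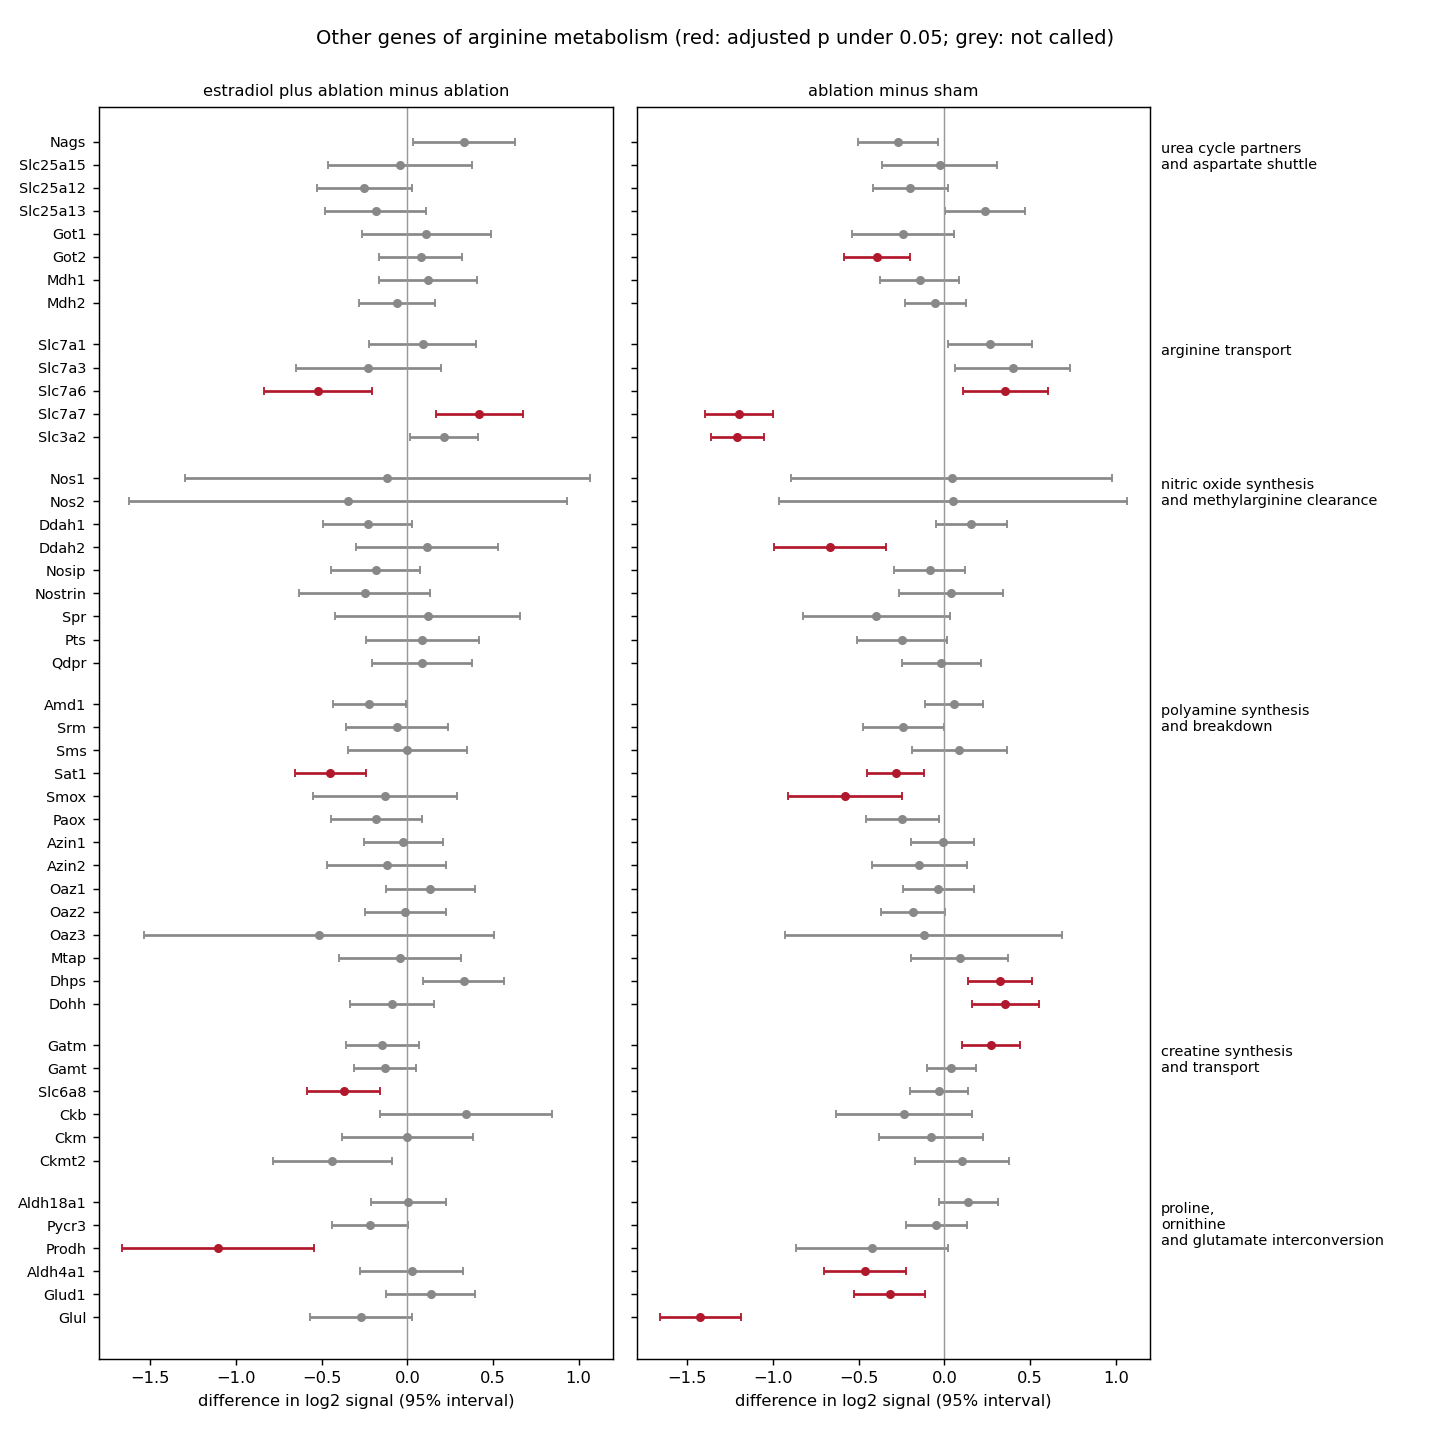
Differences in log2 MAS5 signal for the 48 tested genes of arginine metabolism other than the members, grouped by list, with 95% intervals. The panels show estradiol plus ablation minus ablation, and ablation minus sham. The point labelled Spr comes from a probe set that the platform annotation names Sprr1a. Points in red passed an adjusted p under 0.05 and points in grey did not. Slc3a2, Slc7a7 and Glul lie farthest left in ablation minus sham, between -1.20 and -1.42.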

How the data were processed

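Total RNA of whole testes was measured on Affymetrix rat arrays, and samples were grouped by treatment as titles and source names give it. The authors deposited MAS5 signals on a logarithmic scale, per the submitters' processing notes and the values. These deposited values were read as log2, a base not given in the sources used here, so every fold rests on that reading. No pseudocount or further normalization was applied. The number of arrays limits the precision, and p-values set each difference against the spread between biological replicates within groups.

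Of 31042 probe sets without the 57 controls, 21269 passed the filter (40th percentile of the array in at least 6 arrays). Differences were fitted with limma 3.58.1 in R 4.3.3 over all 31 arrays and 3 groups, with variances moderated along mean signal. Tests were 2-sided with Benjamini-Hochberg adjustment across the 21269, and a call is an adjusted p under 0.05. For lists, each of 11387 genes was represented by its probe set of highest mean. Entrez numbers in the platform annotation gave current gene names. The fit was tested on simulated data.

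The members and lists were chosen with earlier results of these data known. All members are named, with up to 4 called genes per list and comparison by adjusted p, and the 8 genes most like Ass1 by each measure. Further genes (Hnrnpab, Nos2, Slc7a1, Amd1, Srm, Sms and the markers named, Oaz3 included) were chosen after their values were seen. Replicate numbers were not taken as pairs. Deviations of same-numbered arrays correlated between -0.086 and 0.047 over 11 pairs of ablation and sham. Over 6 pairs of estradiol plus ablation and ablation they correlated between -0.182 and 0.059. Over 6 pairs of estradiol plus ablation and sham they correlated between -0.011 and 0.376, with 3 over 0.1. Deposit could not enter the model as a batch, because the newer arrays hold only the estradiol plus ablation group.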

Additional observations from a re-analysis of the deposited data

Results flagged for a closer look

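Of 21 groups of member values small enough to examine for a lone array, 2 held one, and chance gives about 1 in 20. Odc1 in estradiol plus ablation replicate 1 was 2.09, above the other 5 arrays of that group at 1.45 to 1.56. Arg1 in estradiol plus ablation replicate 3 was -3.32, below the rest of its group at -2.37 to -1.95, and below the filter level like the others.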

How the results depend on the processing

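Ass1 in estradiol plus ablation minus ablation stayed between -0.79 and -0.73 over 10 alternatives (adjusted p between 4.83e-05 and 0.001) and between -0.84 and -0.72 when each array was left out in turn. The adjusted p of Odc1 against ablation stayed above the threshold in all of these. Calls of small differences did change, and the cause was not tested. For the first Asl probe set, estradiol plus ablation minus sham was -0.31 (adjusted p 0.0711) with quantile normalization, -0.32 (0.0614) with arrays centred on their median and -0.29 (0.0504) with array weights. It was -0.41 (0.154) with only the sham samples described as irradiated, -0.34 (0.0733) with only those described as control, an alternative added after seeing the data, and -0.45 to -0.23 leaving out 1 array. The mean of both Asl probe sets gave -0.45 in ablation minus sham. The second Asl probe set against sham was -0.91 (0.12) with only irradiated-described sham samples and -1.05 to -0.60 leaving out 1 array. Against ablation it was -0.30 to 0.15, turning without estradiol plus ablation replicate 6. Arg2 against sham was 0.54 (0.0578) with irradiated-described and 0.42 (0.0577) with control-described sham samples, and 0.41 to 0.50 leaving out 1 array. Between the sham descriptions, the second Asl probe set gave -0.050 to 0.20, Oat -0.027 to 0.32, and 0 to 1 probe sets were called, leaving out 1 array. The lowest values, -0.050 and -0.027, came without sham replicate 13.

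With only irradiated-described sham samples, 2345 probe sets were called in ablation minus sham (4128 otherwise) and 1702 in estradiol plus ablation minus sham (3093 otherwise), with 7 pathway genes in each. The mean of all probe sets of a gene left 3 pathway genes called against ablation, and leaving out 1 array left 1 to 5. The share of calls that were higher was 10.7% in estradiol plus ablation against ablation, 24.0% after quantile normalization and 20.1% after centring. Against sham it was 28.5%, and 47.2% after quantile normalization. In ablation minus sham it was 47.2%, and 36.4% with only irradiated-described sham samples.

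Replicate numbers were not taken as pairs in the main fit, and a replicate block left 2 pathway genes called against ablation. With the replicate block, estradiol plus ablation minus sham was -0.40 (0.0609) for the first Asl probe set and 0.35 (0.189) for Arg2, both no longer called. Sat1 against ablation had an adjusted p of 0.0548 with the block.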
